A study of Arabidopsis with 8 samples.

Results

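The genes described here encode the core of nuclear auxin signalling in Arabidopsis. They comprise 29 Aux/IAA repressors, 15 auxin response factors (ARFs) and 5 auxin receptors of the TIR1/AFB family, 49 loci in all. They were taken by family membership and not by a measured value, though the families were picked with earlier results of these data known. Each locus was found on the array through the RefSeq accession of its probes and was read from the brightest of them. A probe that could be tested was found for 46 of the 49 members (26 Aux/IAA, 15 ARF and 5 TIR1/AFB), out of 21520 loci tested. IAA9, IAA15 and IAA32 had no matched probe and were not analysed here.

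The study set the Shahdara ecotype (Sha), which it regarded as salt tolerant, against Landsberg erecta (Ler) and Columbia (Col). The arrays described here were of Sha and Ler. Seedlings of both ecotypes were moved at 10 days after sowing to Murashige and Skoog (MS) plates with 100 mM NaCl, and the controls were grown on the same medium with no added NaCl. RNA came from leaves taken on day 4 after transfer, pooled from at least 30 seedlings of a plate. There were 4 groups of 2 arrays each, Sha salt, Sha control, Ler salt and Ler control, and the 2 arrays of a group were described as biological replicates.

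Auxin is perceived in the nucleus by TIR1 and the AFB proteins, F-box subunits of an SCF ubiquitin ligase. Auxin holds an Aux/IAA protein to the receptor through a short degron in its domain II, and the Aux/IAA is then ubiquitinated and degraded. Without auxin the Aux/IAA proteins bind ARFs and recruit TOPLESS (TPL) corepressors, so the genes to which the ARFs are bound stay off. ARF5, ARF6, ARF7, ARF8 and ARF19 are known as transcriptional activators, and most other ARFs as repressors. Many Aux/IAA genes are themselves rapid auxin-response genes, which makes the pathway a negative feedback loop.

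Signals are given below as a percentage of the 75th percentile of the processed signals on the same array (% of P75). They compare a gene across arrays and not a gene with another gene, because probes differ in efficiency. A member was called when its change was over 2-fold and its p from limma, adjusted by Benjamini-Hochberg across every probe tested, was under 0.05. Changes are log2 differences with their standard error (SE), 2 arrays a group, and the words up-regulated and down-regulated are kept for called members. All 46 members were well above background on all 8 arrays, and no probe was saturated. The median SD between replicates over all probes lay between 0.08 and 0.09 (log2) in the 4 groups. Each of the 4 slides carried the salt and control arrays of 1 ecotype and 1 replicate, so salt comparisons could be made within slides and ecotype comparisons could not. The leaf markers RBCS1A, LHCB1.3, CA1 and RCA were well above background on all 8 arrays. So were all 5 markers of root epidermis, root hairs and root tip (PIN2, RHD6, COBL9, EXPA7 and PRP3), although the samples are labelled leaf. Their summed signal was 69.7 to 78.2% of P75 in Sha salt, 409.8 to 455 in Sha control, 137 to 144 in Ler salt and 339 to 356 in Ler control. In bulk leaf RNA, fewer cells of a type and less RNA per cell cannot be told apart.

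Salt lowered more auxin signalling genes than it raised in both ecotypes, and most of the called members belonged to the largest family, the Aux/IAA repressors. In Sha, 11 of 46 members were down-regulated and 1 was up-regulated, against a background of 17.9% of all loci called lower and 14.1% called higher. In Ler, 11 members were down-regulated and 3 up-regulated, where 15.6% of all loci were lower and 13.1% higher. Across the ecotypes, 8 members were down-regulated in both (12.5% of all loci), none was called in opposite directions (0.167%), 10 were called in only 1 ecotype (14.7%) and 28 in neither (62.3%). Without the fold limit, 27 members were lower and 8 higher in Sha (all loci 39.2% and 30.7%), and 26 were lower and 5 higher in Ler (36.7% and 30.0%).

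By family, the Aux/IAA genes had a median change of -0.66 in Sha and -0.39 in Ler, the ARFs -0.20 and -0.42, and the receptors -0.45 and -0.31. The medians over all loci tested were -0.09 in Sha and -0.08 in Ler. The called members were 10 of 26 Aux/IAA genes in Sha and 13 in Ler, 1 of 15 ARFs in each ecotype, and 1 of 5 receptors in Sha. Over all loci 32.0% were called in either direction in Sha and 28.6% in Ler, so that the Aux/IAA count lay near the background in Sha and above it in Ler, and the ARF counts lay below it. Across the 46 members the salt changes in Sha and in Ler correlated with r = 0.75 (rho = 0.78), beside r = 0.86 over all 21520 loci. This is a description across genes, which are not independent replicates and were read from the same arrays.

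**Figure D1:**
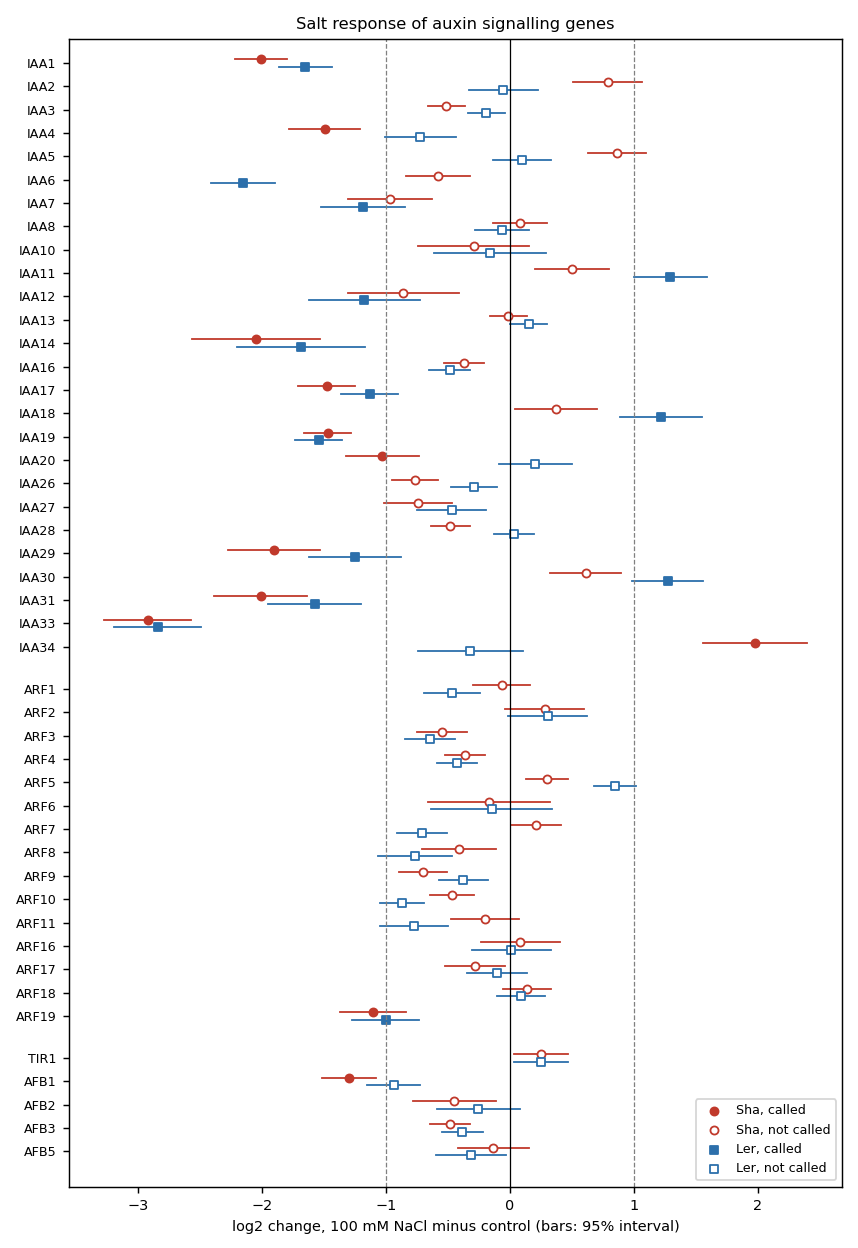
Salt response of the 46 measured members, with the log2 change (100 mM NaCl minus control) on the x axis and the members by family down the page, Sha as circles above Ler as squares. Bars are 95% intervals, filled symbols mark called members and dashed lines the 2-fold limit. The Aux/IAA genes spread from -2.92 (IAA33 in Sha) to 1.98 (IAA34 in Sha), while 14 of 15 ARFs and 4 of 5 receptors were not called in Sha.

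Among the receptors, AFB1 was the one called with salt, in Sha, and TIR1, AFB2 and AFB3 had changes below 2-fold that passed the test in at least 1 ecotype. AFB1 (AT4G03190) is a close relative of TIR1 and is known for a rapid, non-transcriptional auxin response in roots. Its signal was 86.9 and 97.3% of P75 in Sha salt, against 219 and 234 in Sha control. In Ler it was 89.5 and 87.6 with salt, against 163 and 176 in the control. The salt arrays of both ecotypes thus lay at about the same level, and the controls lay above them with no overlap. AFB1 fell by 1.298 ± 0.09 in Sha (log2 ± SE, adjusted p = 4.57e-05) and was called there. In Ler the change was -0.94 ± 0.09 (adjusted p = 0.000211), inside the 2-fold limit. The difference of the 2 responses did not pass the test (-0.36 ± 0.12, adjusted p = 0.0844).

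TIR1 (AT3G62980), the receptor for which the family is named, had the opposite sign. It gave 199 and 219% of P75 in Sha salt and 173 and 179 in Sha control. In Ler it gave 167 and 150.2 with salt and 131 and 136 without. TIR1 was therefore higher in Sha than in Ler both with and without salt, and higher with salt than without in both ecotypes, each time by less than 2-fold. The salt change was 0.25 ± 0.09 in Sha (adjusted p = 0.0438) and 0.25 ± 0.09 in Ler (adjusted p = 0.046). The ecotype difference was 0.40 ± 0.09 with salt (adjusted p = 0.0127) and 0.40 ± 0.09 without (adjusted p = 0.0144).

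AFB3 (AT1G12820), an auxin receptor also known from the nitrate response of roots, gave 179.7 and 187% of P75 in Sha salt and 249.8 and 262 in Sha control. The Ler arrays gave 191 and 195 with salt and 249.6 and 253 without. Its changes of -0.48 ± 0.07 in Sha (adjusted p = 0.00101) and -0.38 ± 0.07 in Ler (adjusted p = 0.00309) passed the test below 2-fold, and groups did not overlap. AFB2 (AT3G26810) gave 77.7 and 64.1 in Sha salt, 104 and 89.0 in Sha control, 82.6 and 72.9 in Ler salt, and 88.0 and 97.0 in Ler control. Its change passed the test in Sha (-0.45 ± 0.14, adjusted p = 0.0285) and not in Ler (-0.25 ± 0.14, adjusted p = 0.156). AFB5 (AT5G49980), of the branch of receptors that also binds picloram-type auxins, gave 154 and 141 in Sha salt, 169 and 153 in Sha control, 149 and 127 in Ler salt, and 180.1 and 162 in Ler control, and passed neither salt test. No receptor was called in any comparison other than AFB1 with salt in Sha.

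The Aux/IAA genes held 7 of the 8 members down-regulated in both ecotypes: IAA1, IAA14, IAA17, IAA19, IAA29, IAA31 and IAA33. IAA33 (AT5G57420) encodes an Aux/IAA protein that lacks the degron and so is not a TIR1 target in the usual way. Its signal was 0.894 and 1.19% of P75 in Sha salt, against 8.001 and 7.64 in Sha control. In Ler it was 1.75 and 1.68 with salt, against 12.8 and 11.7 without. Every salt array lay far below every control array. IAA33 fell by 2.92 ± 0.14 in Sha (7.57-fold, adjusted p = 1.25e-05) and fell by 2.84 ± 0.14 in Ler (7.16-fold, adjusted p = 1.63e-05), and the changes within single slides were -3.16 and -2.68 in Sha and -2.87 and -2.805 in Ler.

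IAA14 (AT4G14550, SOLITARY-ROOT) encodes the repressor that holds back lateral root initiation through ARF7 and ARF19. It gave 12.5 and 9.06% of P75 in Sha salt and 50.5 and 38.0 in Sha control. Its Ler signals were 15.2 and 13.7 with salt and 51.1 and 41.9 without. All 4 salt arrays lay well below all 4 controls. The fall was 4.12-fold in Sha (-2.04 ± 0.21, adjusted p = 0.000277) and 3.21-fold in Ler (-1.68 ± 0.21, adjusted p = 0.000728), and a second probe of IAA14 was also called lower in both ecotypes (-1.68 and -1.73).

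IAA1 (AT4G14560, AXR5), the neighbour of IAA14, gave 33.7 and 30.9% of P75 in Sha salt and 130.3 and 129 in Sha control. In Ler it gave 39.8 and 44.2 with salt and 127 and 136 without. The controls of the ecotypes overlapped (-0.02 ± 0.09, adjusted p = 0.847), and with salt Sha was lower than Ler by less than 2-fold (-0.38 ± 0.09, adjusted p = 0.0146). IAA1 fell by 2.01 ± 0.09 in Sha (adjusted p = 7.73e-06) and fell by 1.65 ± 0.09 in Ler (adjusted p = 1.94e-05). In the TAIR10.1 annotation no protein-coding gene lies between IAA1 and IAA14, and the same holds for IAA2 and IAA7 and for IAA3 and IAA17. The pairs did not share a salt response in every case: IAA3 had changes of -0.51 in Sha and -0.19 in Ler beside -1.47 and -1.13 for IAA17, and IAA2 had 0.79 and -0.05 beside -0.97 and -1.19 for IAA7.

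IAA17 (AT1G04250, AXR3), whose stabilised form is a classic auxin-resistant mutant, gave 309 and 321% of P75 in Sha salt, 835 and 919 in Sha control, 414 and 414 in Ler salt, and 969.7 and 845 in Ler control. It fell by 1.47 ± 0.09 in Sha (adjusted p = 3.49e-05) and fell by 1.13 ± 0.09 in Ler (adjusted p = 0.000125). A second IAA17 probe was lower by more, at -1.81 and -1.40. IAA19 (AT3G15540, MASSUGU2), which acts with ARF7 in hypocotyl tropism, gave 22.5 and 22.4% of P75 in Sha salt and 62.7 and 61.6 in Sha control. The Ler arrays gave 28.1 and 31.5 with salt and 86.6 and 86.8 without. IAA19 fell in both ecotypes, -1.47 ± 0.08 in Sha (adjusted p = 1.65e-05) and -1.54 ± 0.08 in Ler (adjusted p = 1.6e-05), with a difference of 0.07 ± 0.11 between the responses (adjusted p = 0.647), and its level was lower in Sha both with salt (-0.41, adjusted p = 0.00726) and without (-0.48, adjusted p = 0.00462).

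IAA29 (AT4G32280), known as a target of the PIF light-signalling factors in shade, gave 1.13 and 0.931% of P75 in Sha salt and 4.00 and 3.67 in Sha control. Its Ler signals were 3.38 and 2.88 with salt and 8.18 and 6.70 without. The salt arrays of Ler were thus nearer to the controls of Sha than to the salt arrays of Sha. The salt change was -1.90 ± 0.15 in Sha (adjusted p = 9.17e-05) and -1.25 ± 0.15 in Ler (adjusted p = 0.000655), and the difference of the responses did not pass the test (-0.65 ± 0.21, adjusted p = 0.0754). IAA31 (AT3G17600), which carries an incomplete degron, gave 0.894 and 1.22% of P75 in Sha salt, 3.95 and 4.47 in Sha control, 1.22 and 1.19 in Ler salt, and 3.68 and 3.498 in Ler control. IAA31 fell by 2.01 ± 0.15 in Sha (adjusted p = 7.6e-05) and fell by 1.57 ± 0.15 in Ler (adjusted p = 0.000248).

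**Figure D2:**
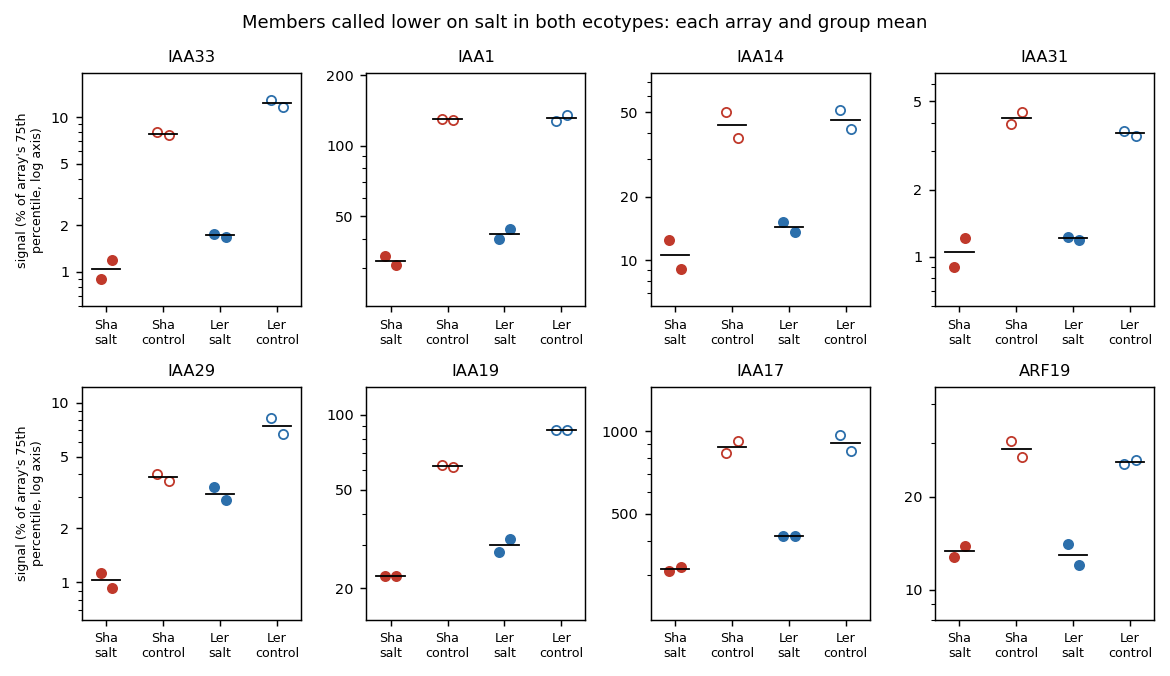
Signal (% of the array's 75th percentile, log axis) of the 8 members called lower with salt in both ecotypes, each point an array and each bar the group mean. Sha salt, Sha control, Ler salt and Ler control run left to right. In all 8 panels both salt arrays of an ecotype lie below both of its controls.

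The members IAA6, IAA20, IAA29, IAA31, IAA33 and IAA34 were dim, with processed signals down to 20.9 units (IAA31 and IAA33 in Sha salt). Their calls were lost when the background was corrected by normexp with an offset of 50 units, under which the change of IAA33 was -1.59 in Sha and -1.18 in Ler and that of IAA31 was -0.82 and -0.05. The root and dividing-cell markers were lower with salt, apart from RHD6 in Ler (-0.01). CYCB1;1 changed less in Ler (-0.36) than in Sha (-1.16). The summed signal of the dividing-cell markers CYCB1;1 and KNOLLE was 96.1 to 108 in Sha salt, 241 to 272 in Sha control, 159.7 to 164 in Ler salt and 261 to 285 in Ler control. The guard cell markers FAMA and MYB60 were also lower, with a sum of 39.6 to 43.5 in Sha salt, 117 to 124 in Sha control, 35.4 to 37.8 in Ler salt and 149.6 to 157 in Ler control. Most of this lay in MYB60 (-2.64 in Sha and -3.03 in Ler), while FAMA changed by -0.30 and -0.51. The sum of the 4 leaf mesophyll markers was 25574 to 32600 in Sha salt and 31931 to 41890 in Sha control, which overlapped, and 22978 to 25386 in Ler salt and 44819 to 67029 in Ler control. In Sha, CA1 changed by -2.80, RCA by -0.71, RBCS1A by -0.04 and LHCB1.3 by 0.17. In Ler these changes ran from -4.25 (CA1) to -0.73 (LHCB1.3). The part of these markers, and of the root markers above, in the Aux/IAA results was not tested.

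Some Aux/IAA genes were called in 1 ecotype only. IAA4 (AT5G43700) gave 91.2 and 109.8% of P75 in Sha salt, against 262 and 302 in Sha control. In Ler it gave 131 and 126 with salt, against 216 and 208 without. IAA4 fell in both, by 1.49 ± 0.12 in Sha (adjusted p = 8.53e-05) and by less than 2-fold in Ler (-0.72 ± 0.12, adjusted p = 0.00236), and these responses differed (-0.77 ± 0.17, adjusted p = 0.0237).

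IAA7 (AT3G23050, AXR2), another repressor known from a stabilised auxin-resistant mutant, gave 137 and 116% of P75 in Sha salt, 277 and 218 in Sha control, 132 and 127 in Ler salt, and 286 and 301 in Ler control. IAA12 (AT1G04550, BODENLOS), the partner of ARF5 in embryo patterning, gave 71.2 and 60.3 in Sha salt, 135 and 104 in Sha control, 72.0 and 89.8 in Ler salt, and 167 and 197 in Ler control. IAA7 and IAA12 were called lower only in Ler, with changes of -1.19 ± 0.14 (adjusted p = 0.000525) and -1.17 ± 0.18 (adjusted p = 0.00195). In Sha their changes were -0.97 ± 0.14 (adjusted p = 0.00119) and -0.86 ± 0.18 (adjusted p = 0.00692). A difference between the ecotypes was not shown for either of them (adjusted p = 0.437 for IAA7 and 0.404 for IAA12).

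The up-regulated members of Ler were IAA11, IAA18 and IAA30. IAA11 (AT4G28640) gave 150.3 and 134% of P75 in Ler salt and 59.0 and 56.5 in Ler control, a rise of 1.296 ± 0.12 (2.46-fold, adjusted p = 0.000203). In Sha it gave 85.6 and 104 with salt and 63.1 and 70.1 without, a rise of 0.50 ± 0.12 (adjusted p = 0.0115). IAA18 (AT1G51950), whose stabilised form disturbs embryo apical patterning, gave 388 and 315 in Ler salt and 151 and 149 in Ler control, a rise of 1.22 ± 0.13 (adjusted p = 0.000423). In Sha it gave 272 and 309 with salt and 207 and 242 without (0.37 ± 0.13, adjusted p = 0.0499). All 3 tested probes of IAA18 were called higher in Ler and not in Sha.

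IAA30 (AT3G62100), which like IAA31 lacks a complete degron, gave 10.2 and 11.7% of P75 in Ler salt and 4.51 and 4.49 in Ler control, a rise of 1.28 ± 0.12 (adjusted p = 0.000188). In Sha it gave 7.50 and 8.17 with salt and 4.69 and 5.59 without, a rise of 0.61 ± 0.12 (adjusted p = 0.00432). On the probes read for these 3 genes the salt arrays of Ler reached the highest level. Another IAA18 probe was higher in Sha salt (mean 265% of P75) than in Ler salt (182), a difference of 0.54 (adjusted p = 0.00422), so the order of the salt groups was not settled for IAA18. Without salt, IAA18 was higher in Sha (0.58 ± 0.13, adjusted p = 0.0178), while the differences of IAA11 (0.20) and IAA30 (0.19) did not pass the test. The responses differed for IAA11 (-0.80 ± 0.17, adjusted p = 0.0235), IAA18 (-0.85 ± 0.19, adjusted p = 0.027) and IAA30 (-0.66 ± 0.17, adjusted p = 0.0355), each by less than 2-fold. The phloem companion cell markers SUC2 and APL also had higher values with salt, with a sum of 698 to 904 in Sha salt, 499.1 to 585 in Sha control, 890 to 982 in Ler salt and 498.6 to 525 in Ler control. Of the shoot apical meristem markers, STM changed by -0.62 in Sha and -0.38 in Ler. CLV3 was well above background on only 4 arrays and WUS on only 2. WUS gave 1.46 and 1.21% of P75 in Ler salt and 0.09 to 0.27 on the other arrays. The part of the phloem and meristem markers in these rises, and in that of ARF5, was not tested.

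The Aux/IAA proteins without a complete degron (IAA20, IAA30, IAA31, IAA33 and IAA34, with IAA32 not measured) were called in both directions. In Sha 3 of the 5 were down-regulated and IAA34 was up-regulated, and in Ler 2 were down-regulated and IAA30 was up-regulated. Over all loci 17.9% were lower and 14.1% higher in Sha, and 15.6% and 13.1% in Ler. The grouping by degron was made with the values known and is given as a description. The remaining 10 Aux/IAA genes were not called with salt in either ecotype. The brightest probe of the family, that of IAA8, gave 1642 and 1509% of P75 in Sha salt, 1526 and 1442 in Sha control, 1643 and 1521 in Ler salt, and 1732 and 1578 in Ler control. IAA8 passed the test in none of the 5 comparisons, and neither did IAA10 or IAA13. IAA16, the next brightest, gave 736 and 752 in Sha salt, 949.7 and 974 in Sha control, 560.4 and 555 in Ler salt, and 803 and 760.1 in Ler control. Its changes of -0.37 in Sha (adjusted p = 0.0032) and -0.49 in Ler (adjusted p = 0.00105) were below 2-fold. IAA26 (-0.76 in Sha and -0.29 in Ler) and IAA27 (-0.74 and -0.47) passed the test in both ecotypes. IAA28, a repressor of lateral root formation, passed it in Sha (-0.48) and not in Ler (0.03).

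Of the 15 ARFs, ARF19 (AT1G19220) was the one called with salt, and it was lower in both ecotypes. ARF19 is an activator that acts with ARF7 in lateral root formation, and its transcript is itself auxin-inducible. It gave 12.8 and 13.9% of P75 in Sha salt and 30.4 and 26.95 in Sha control. The Ler arrays gave 14.03 and 12.0 with salt and 25.6 and 26.3 without. Salt and control arrays did not overlap in either ecotype, and the ecotype differences of 0.04 with salt and 0.14 without did not pass the test. ARF19 fell by 1.104 ± 0.11 in Sha (adjusted p = 0.000232) and fell by 1.00 ± 0.11 in Ler (adjusted p = 0.000402), where it was at the edge of the fold limit. The Ler call was lost under quantile normalization, median scaling, normexp and without Ler salt replicate 2 (-0.89) or Ler control replicate 2 (-0.98), with changes from -1.11 to -0.54 over all alternatives, and the Sha call under normexp (-0.99).

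ARF7 (AT5G20730, NPH4), the partner of ARF19, did not follow it. It gave 162 and 143% of P75 in Sha salt and 133 and 129 in Sha control. Its Ler signals were 90.2 and 89.1 with salt and 149 and 143 without. The salt arrays of Sha lay above the controls of Sha, and those of Ler lay below all others. The change was 0.21 ± 0.08 in Sha (adjusted p = 0.0631) and -0.71 ± 0.08 in Ler (adjusted p = 0.00056). The difference of the responses was 0.92 ± 0.12 (1.89-fold, adjusted p = 0.00509), and it passed 2-fold without Sha salt replicate 2 (1.01). The dimmer ARF7 probe gave a difference of 0.59.

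ARF5 (AT1G19850, MONOPTEROS), which directs vascular development and the first organs of the embryo, had one of the brightest ARF probes. It gave 194 and 198% of P75 in Sha salt and 156 and 162 in Sha control. In Ler it gave 293 and 273 with salt and 157 and 157 without. The controls of the 2 ecotypes overlapped, and the salt arrays of Ler stood highest. ARF5 rose by 0.30 ± 0.07 in Sha (adjusted p = 0.00951) and by 0.85 ± 0.07 in Ler (1.80-fold, adjusted p = 0.000117), and the responses differed (-0.55 ± 0.10, adjusted p = 0.0139). The other ARF with a bright probe, ARF1, gave 204 and 220.1 in Sha salt, 217 and 226 in Sha control, 126 and 143 in Ler salt, and 179 and 193 in Ler control. Its change passed the test in Ler (-0.46 ± 0.09, adjusted p = 0.00572) and not in Sha (-0.07 ± 0.09, adjusted p = 0.559).

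Of the other activators, ARF8 was lower with salt by less than 2-fold in Sha (-0.41, adjusted p = 0.0251) and in Ler (-0.76, adjusted p = 0.00209). ARF6, its partner in flower maturation, passed neither test (-0.17 and -0.15). ARF3 (ETTIN) and ARF4, which act together in leaf polarity, were lower in both ecotypes, with changes from -0.64 to -0.36. ARF10, a target of miR160, had changes of -0.46 in Sha and -0.87 in Ler, while ARF16, of the same miR160-regulated group, passed neither test. ARF9 was lower in Sha (-0.70) and in Ler (-0.37). ARF11 passed the test in Ler (-0.77) and not in Sha (-0.20), and ARF17 in Sha (-0.28) and not in Ler (-0.10). ARF2 and ARF18 passed neither salt test. Of the 10 ARFs outside the activators, none was called in either ecotype.

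**Figure D3:**
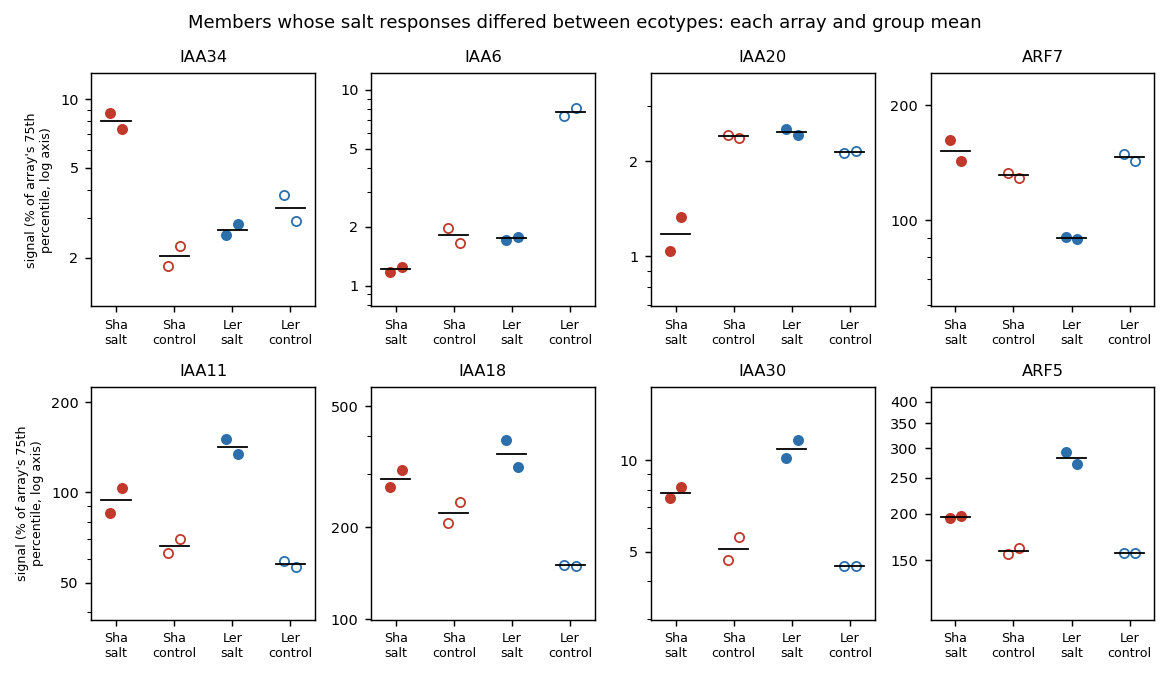
Signal (% of the array's 75th percentile, log axis) of 8 members whose salt response differed between Sha and Ler at an adjusted p under 0.05, each point an array and each bar the group mean, with Sha salt, Sha control, Ler salt and Ler control left to right. IAA34, IAA6 and IAA20 were also over 2-fold; in IAA11, IAA30 and ARF5 the salt arrays of Ler reach the highest level, as they do on the plotted IAA18 probe but not on another of its probes.

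The salt response itself differed between the ecotypes in 3 of 46 members at over 2-fold, IAA34, IAA6 and IAA20, beside 8.76% of all loci. Without the fold limit 16 members passed (9 with a more negative response in Sha and 7 with a more positive one), beside 25.6% of all loci. IAA34 (AT1G15050), an Aux/IAA without the degron, gave 8.69 and 7.42% of P75 in Sha salt and 1.84 and 2.26 in Sha control. The Ler arrays gave 2.52 and 2.81 with salt and 3.77 and 2.91 without. The salt arrays of Sha stood alone above the other 6. IAA34 rose by 1.98 ± 0.17 in Sha (3.94-fold, adjusted p = 0.000133), its change in Ler was -0.32 ± 0.17 (adjusted p = 0.156), and the difference was 2.29 ± 0.24 (adjusted p = 0.00304).

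IAA6 (AT1G52830, SHY1), found in a screen for suppressors of a long-hypocotyl mutant, differed most between the controls. It gave 1.17 and 1.25% of P75 in Sha salt, 1.97 and 1.66 in Sha control and 1.71 and 1.77 in Ler salt, against 7.36 and 8.08 in Ler control. The controls of Ler stood alone above the other 6 arrays. IAA6 fell by 2.15 ± 0.11 in Ler (4.44-fold, adjusted p = 1.48e-05) and fell by 0.58 ± 0.11 in Sha (adjusted p = 0.00362), a difference of 1.57 ± 0.15 (adjusted p = 0.00226).

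IAA20 (AT2G46990), which lacks a complete degron and is known from vascular patterning, gave 1.04 and 1.33% of P75 in Sha salt and 2.43 and 2.37 in Sha control. Its Ler signals were 2.53 and 2.41 with salt and 2.13 and 2.16 without. Here the salt arrays of Sha stood alone below the other 6. IAA20 fell by 1.03 ± 0.12 in Sha (adjusted p = 0.000501), its change in Ler was 0.21 ± 0.12 (adjusted p = 0.181), and the difference was -1.23 ± 0.17 (adjusted p = 0.00638). The Sha call of IAA20 was lost under median scaling, under normexp and without Sha salt replicate 1 (-0.85), with changes from -1.22 to -0.26. Under normexp none of these 3 differences was called: 1.00 for IAA34, 0.68 for IAA6 and -0.89 for IAA20.

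With salt, Sha stood below Ler on the probes read for most Aux/IAA genes: 23 of 26 differences were negative, with a median of -0.39, beside 51.9% negative and a median of -0.02 over all loci. All probes of a member had the same sign here for 7 of the 10 members with several tested probes. Other probes of IAA7 (0.42) and IAA18 (0.54) were positive where the probes read for them were negative (-0.04 and -0.27). In the same comparison all 5 root markers were lower in Sha, from -1.41 (EXPA7) to -0.66 (PIN2), as were CYCB1;1 (-0.42) and KNOLLE (-0.72), and their part in the family's lean was not tested. The ARFs had a median of 0.07 and the receptors 0.05. Most of these differences were small, and 3 members were called (IAA29 and IAA20 lower in Sha, IAA34 higher), beside 14.2% of all loci. Without the fold limit 24 members passed, 17 lower and 7 higher in Sha, beside 48.5% of all loci. IAA29 was 3.04-fold lower in Sha salt than in Ler salt (-1.603 ± 0.15, adjusted p = 0.000464), and the difference of IAA20 was -1.07 ± 0.12 (adjusted p = 0.000925). The IAA20 call was lost without Sha salt replicate 1 (-0.895). IAA34 was higher in Sha salt by 1.59 ± 0.17 (adjusted p = 0.000782).

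Without salt 17 of 26 Aux/IAA differences were negative, with a median Sha minus Ler difference of -0.05, beside 51.0% negative over all loci. Of these genes 9 were lower and 3 higher in Sha without the fold limit. IAA5 and IAA6 were called, both lower in Sha, beside 12.0% of all loci, and without the fold limit 17 members passed beside 44.2% of all loci. IAA5 (AT1G15580), an early auxin-response gene, gave 22.2 and 20.01% of P75 in Sha salt and 31.3 and 31.3 in Ler salt. Without salt it gave 11.1 and 12.1 in Sha control and 30.8 and 27.5 in Ler control. The controls of Sha were the lowest of the 8 arrays, and the difference without salt was -1.33 ± 0.10 (2.51-fold, adjusted p = 0.00019). It narrowed to -0.57 ± 0.10 with salt (adjusted p = 0.00449), as IAA5 rose by 0.86 ± 0.10 in Sha (adjusted p = 0.000384) and did not change beyond its error in Ler (0.10 ± 0.10, adjusted p = 0.385). IAA6 was 4.27-fold lower in Sha control than in Ler control (-2.095 ± 0.11, adjusted p = 5.02e-05).

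IAA29 (-0.95, adjusted p = 0.00459) and ARF11 (-0.996, adjusted p = 0.00115) were just inside the 2-fold limit without salt, and both passed it without Sha control replicate 1 (-1.01 and -1.11) or without Ler control replicate 2 (-1.09 and -1.099), which made 4 called members. Each replicate 1 pair of the ecotypes was scanned on the same day and each replicate 2 pair on different days. The difference of IAA6 without salt was -1.90 in replicate 1 and -2.29 in replicate 2, that of IAA5 was -1.48 and -1.18, and those of IAA29 and IAA34 with salt were -1.58 and -1.63, and 1.79 and 1.40. Ecotype and slide cannot be told apart for these values.

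**Figure D4:**
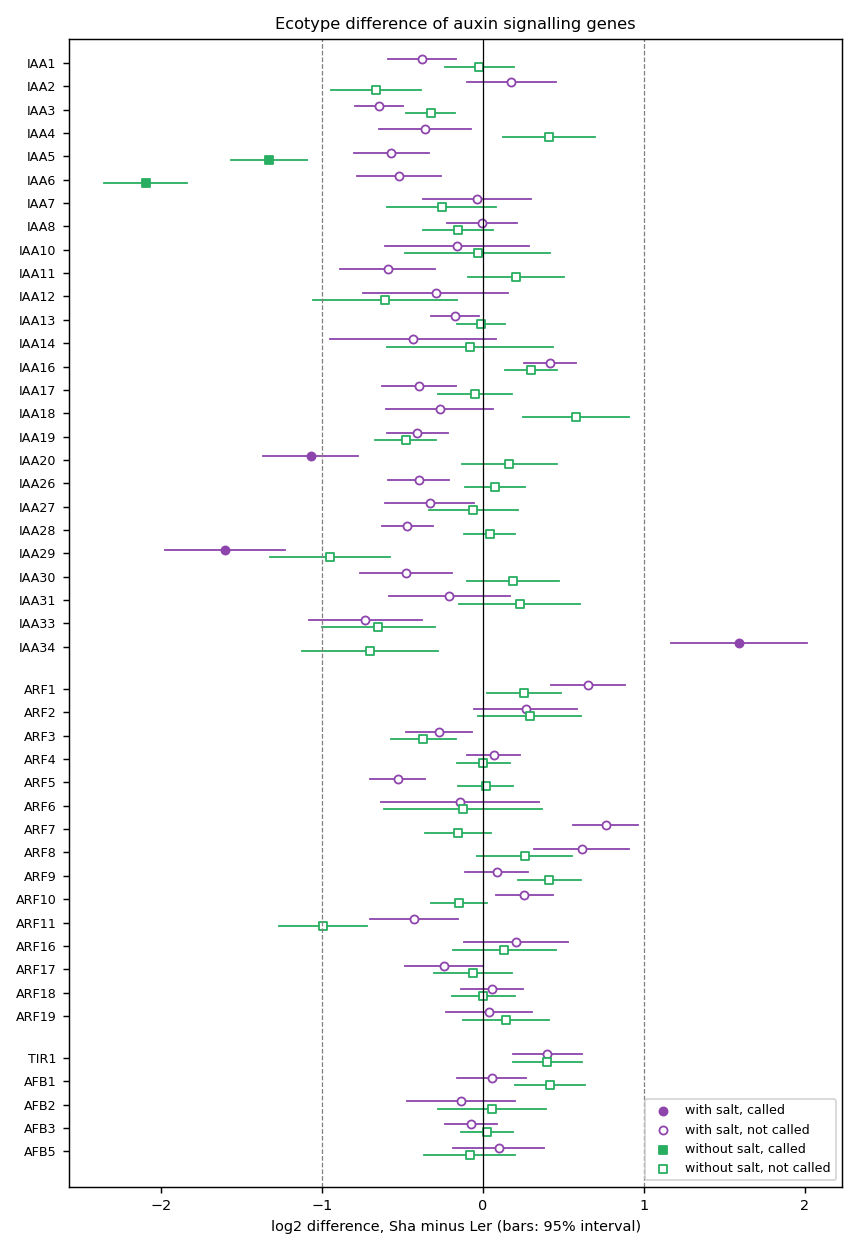
Ecotype difference of the 46 measured members, with the log2 difference (Sha minus Ler) on the x axis and the members by family down the page, with salt as circles above without salt as squares. Bars are 95% intervals, filled symbols mark called members and dashed lines the 2-fold limit. With salt 23 of 26 Aux/IAA genes lie left of 0, and IAA34 lies at 1.59.

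For 10 members more than 1 probe was tested, and all probes of a member gave the same call for 10 of 10 in the salt comparison of Sha and for 9 of 10 in that of Ler. The exception was ARF10, whose second probe was called lower in Ler (adjusted p = 0.0116). That probe was not well above background on either Ler salt array, and its fall was at least 2.14-fold. Agreement was poorer for Sha against Ler without salt, where 8 of 10 members had the same call and 6 of 10 the same sign on all probes. The brightest probe of IAA2 gave -0.67 and its other probe 0.29, so no direction is given for IAA2 there. A further IAA18 probe was called higher in Sha (1.02), where the other IAA18 probes gave 0.58 and 0.53.

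The other genes of the auxin pathway were counted from lists, against the same backgrounds of all loci. These were 17.9% lower and 14.1% higher in Sha, and 15.6% lower and 13.1% higher in Ler. In either direction they were 32.0% in Sha and 28.6% in Ler. The SCF partners and regulators of TIR1/AFB (ASK1, ASK2, CUL1, RBX1, AXR1, CAND1 and SGT1B) had 0 of 7 genes called with salt in either ecotype, and the TPL/TPR corepressors 0 of 5. These counts rest on short lists and on the brightest probe of each gene. For CAND1 that probe gave -0.43 in Sha and -0.33 in Ler, whereas the study lists CAND1 as raised by salt. The source of this disagreement was not tested. AFB4, the remaining receptor gene, was not called either (-0.03 in Sha and 0.22 in Ler). Of the TAA and YUC auxin synthesis genes, 7 of 11 were down-regulated and none up-regulated in Sha, and 6 were down-regulated and 2 up-regulated in Ler. YUC3 fell by 2.72 ± 0.21 in Sha (adjusted p = 7.3e-05), YUC2 fell by 2.24 ± 0.11 in Ler (adjusted p = 1.55e-05), and YUC4 rose by 1.42 ± 0.17 in Ler (adjusted p = 0.00056).

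Among the auxin carriers (PIN, AUX/LAX and ABCB), 10 of 14 were down-regulated in Sha and 8 in Ler, with none up-regulated. Of all loci, 17.9% were lower and 14.1% higher in Sha, and 15.6% and 13.1% in Ler. PIN5, a carrier of the endoplasmic reticulum, fell by 3.02 ± 0.09 in Sha (adjusted p = 2.28e-06) and fell by 2.79 ± 0.09 in Ler (adjusted p = 3.55e-06). PIN2 of this list is also one of the root markers given above. The GH3 genes, whose enzymes conjugate auxin or jasmonate to amino acids, went both ways, with 2 of 7 down-regulated and 3 up-regulated in Sha and 1 and 4 in Ler. GH3.3 rose by 4.31 ± 0.09 in Sha (adjusted p = 9.81e-07) and by 3.75 ± 0.09 in Ler (adjusted p = 1.63e-06), while GH3.9 fell by 2.81 ± 0.08 in Sha and fell by 2.48 ± 0.08 in Ler.

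The SAUR genes, small auxin up RNA genes linked to cell expansion, held the widest range of changes among these lists. Of 65 tested, 32 were down-regulated and 13 up-regulated in Sha, and 31 and 14 in Ler, with medians of -0.77 and -0.92. The shares over all loci were 17.9% lower and 14.1% higher in Sha, and 15.6% and 13.1% in Ler. With genes that were not well above background in a group set at their bound (5 in Sha and 12 in Ler, of which 1 and 2 had no bound and were left out) the medians were -0.92 and -0.92. SAUR35 rose by 4.24 ± 0.07 in Sha (adjusted p = 5.56e-07). SAUR26 fell by 5.30 ± 0.33 in Sha (adjusted p = 3.18e-05), where 1 of its 2 salt arrays was not well above background. In Ler, SAUR62 was not well above background with salt and was at least 20.7-fold lower there (adjusted p = 7.07e-06), and SAUR25 was not well above background in the control and was at least 7.37-fold higher with salt (adjusted p = 6.49e-05). For such bounds the dim group was set at the lowest signal well above background on its arrays, or at the probe's own signal where that was higher.

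**Figure D5:**
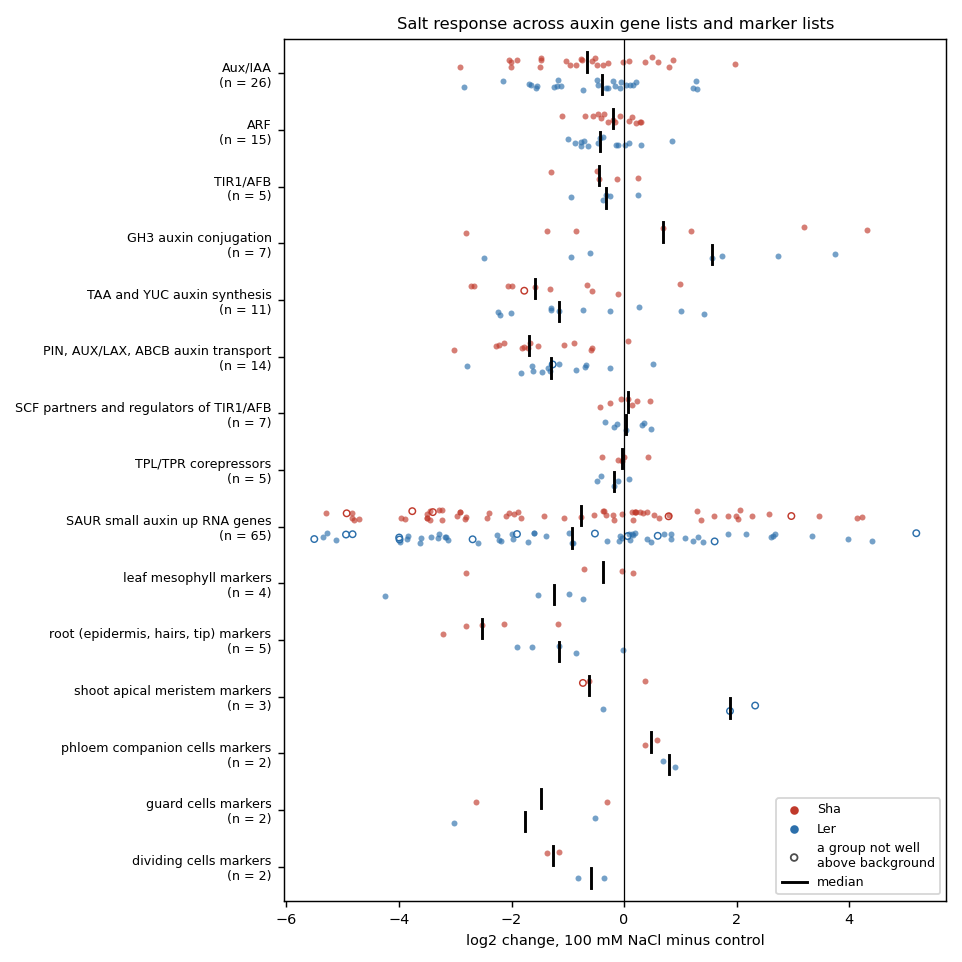
Log2 salt change (100 mM NaCl minus control) of each tested gene of the 3 member families, the other auxin lists and the 6 cell type marker lists, with Sha above Ler in each list and black bars at the medians. Open symbols mark genes with a group not well above background, whose true change is only bounded. Among genes measured in both groups, SAUR changes run from -5.35 to 4.40 in Ler, and those of the SCF and TPL/TPR lists from -0.49 to 0.49.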

How the data were processed

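Leaf RNA of 2 ecotypes with and without salt was hybridised, Cy3-labelled, to 8 Agilent Arabidopsis arrays of 45220 features. The authors' deposited files hold scanner output of Agilent Feature Extraction 10.7.1.1: per spot the processed signal intensity (background-subtracted, not normalized between arrays), the raw signal, the local background and flags. The deposited value table equalled these processed signals on all 45220 features of each array (column medians 259 to 675), linear and uncentred, so it was not used separately. The study's methods name GeneSpring with a p and a 2-fold limit, and no test.

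Flagged outlier spots were left out (31 of 43603 probes had no other spot), spots of a probe averaged, and log2 processed signals scaled to each array's 75th percentile. The 34660 probes that both arrays of any group detected well above background were tested with limma 3.58.1 (R 4.3.3) on 4 group means. The fit had 4 residual degrees of freedom plus 1.95 from moderation. It was also run on simulated data with independent arrays, which did not hold the correlation within slides given below. Of 43572 probes, 34263 matched 25374 loci through RefSeq accessions (TAIR10.1 table, used for names and neighbours only, since the arrays name another build). The number of arrays, 2 a group, limits precision. Between 72.5 and 79.0% of probes were well above background per array, and the 75th-percentile signal was 57.9 (Ler control replicate 1) to 136 times the local background.

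Members and lists were chosen with earlier results of these data known. Genes were named as all receptors, the 3 largest called rises and falls per comparison in Aux/IAA and ARF genes, all called differences of salt responses, the 2 brightest probes per family and the largest called change of each other list; further called members, ARF7, ARF11 and those named with small changes were chosen after their values were seen. SAUR genes were taken by symbol or synonym (65 of 80 tested). Of 9 other ARF and AFB genes listed, only AFB4 was tested. Sequence differences between Sha and Ler under a probe were not analysed here, and no sequence was used. Scan days and slides came from the file headers. The comparisons were refitted under alternatives in scaling, background, filter, moderation, blocks, probes per locus, thresholds and arrays left out. Analysis used Python 3.11.15.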

Additional observations from a re-analysis of the deposited data

Results flagged for a closer look

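The salt response of 3 of 46 members differed between the ecotypes by over 2-fold, beside 8.76% of all loci. The test was of the difference itself (limma, Benjamini-Hochberg adjusted over all probes tested). Without the fold limit 16 members passed, beside 25.6% of all loci. None of the 3 differences was called under normexp. For IAA34 the response was 2.29 higher (log2) in Sha than in Ler, with 8.69 and 7.42% of P75 in Sha salt against 1.84 and 2.26 in Sha control, and 2.52 and 2.81 in Ler salt against 3.77 and 2.91 in Ler control. For IAA6 the response was 1.57 higher in Sha, where the fall was smaller, and the Ler controls alone stood high at 7.36 and 8.08% of P75. For IAA20 the difference was -1.23, with a fall in Sha and a change of 0.21 in Ler that did not pass the test. These 3 genes were dim on all arrays. The root markers had larger falls in Sha than in Ler (PIN2, -2.13 in Sha and -1.16 in Ler, log2). The differences of their responses ran from -1.67 (EXPA7) to -0.91 (COBL9). Those of the leaf mesophyll markers ran from 0.82 (RCA) to 1.44 (CA1). The part of either marker list in these 3 results was not tested.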

How the results depend on the processing

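Of 4094 single-gene values recomputed under the alternatives none changed sign while called, 26 lost and 11 gained a call, 295 moved by more than the replicate SD and 3762 did neither. Of the 34 calls, 15 held under every alternative, and 18 were lost under normexp with an offset of 50, of which 15 were lost under normexp alone. Under normexp the called members were 6 lower and 0 higher in Sha, and 6 lower and 3 higher in Ler. There were 0 for Sha against Ler with salt, 1 without salt and 0 for the difference of the responses. Normexp started from the raw median signals and the local background in place of the processed signals, and added the offset. Which of these steps changed the calls was not tested. The median of all probes became 0.14 for salt in Ler (from -0.10 at the reported setting). For Sha against Ler with salt it became -0.21. Without a background filter the median for salt in Ler was -0.24. With no fold limit the counts were 27 lower and 8 higher in Sha, 26 lower and 5 higher in Ler, 24 with salt, 17 without and 16 for the difference. Leaving out 1 array gave 11 to 13 lower and 1 higher in Sha, 10 to 11 lower and 3 higher in Ler, 2 to 3 with salt, 2 to 4 without salt (4 without Sha control replicate 1 or Ler control replicate 2) and 3 to 4 for the difference. The replicate block left all counts as they were (11 and 1, 11 and 3, 3, 2, 3), as did slide as a block. Between the groups compared, the differences of replicate 2 minus replicate 1 correlated across all tested probes with r from 0.06 to 0.47. Within an ecotype, same-numbered salt and control arrays shared a slide, and the estimated correlation within slides was 0.54. The reported fit did not use this pairing. IAA17 in Ler lost its call under quantile normalization (-0.998). With 2 arrays a group, and dim probes near background, the values of IAA6, IAA20, IAA29, IAA31, IAA33 and IAA34 are the least certain. This holds for their large changes too: that of IAA31 in Ler was -1.57 at the reported setting and -0.05 under normexp.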
